A study of Mus musculus with 18 samples.

Results

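The widest methylated stretches of the mouse stem cell transcriptome were examined, defined as peaks of at least 1000 bp in the authors' final lists of N6-methyladenosine (m6A) peaks. Rows whose end minus start was 1000 or more were taken from the final lists of embryonic stem cells (ESCs) and embryoid bodies (EBs) and merged where they overlapped. The 171 such rows of 10431 in ESCs and 534 of 8384 in EBs gave 569 wide regions. With 10978 other merged regions that touched none of them, they made 11547 final regions in all. The wide regions lay on 534 of the 7130 genes with any final region, a share of 7.49%. Members were thus chosen by peak width in these lists, so their widths and their presence in the ESC and EB lists are descriptions and carry no test.

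m6A is the most common internal modification of messenger RNA. It is placed in the nucleus by a complex whose catalytic subunit is Mettl3, at adenosines in the consensus DRACH (where D stands for any base but C, R for a purine and H for any base but G), whose most favoured core is GGAC. In mouse and human mRNA it is known to be concentrated around stop codons and in long exons. In m6A-seq, RNA fragments bound by an m6A antibody are sequenced beside unenriched input, and a peak is a stretch where the enriched reads stand above the input. Neighbouring methylated sites closer than the fragment length can merge into a single peak, so width is not a count of sites.

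ESCs of the BVSC line were kept in serum-free N2B27 medium with LIF and the inhibitors CHIR99021 (against GSK3) and PD0325901 (against MEK), the condition called 2i. EBs were aggregates grown from ESCs in serum for 8 to 21 days, in which cells differentiate into several lineages, and embryonic fibroblasts (MEFs) were derived at E13.5 (days of embryonic development). The fourth group was a single Mettl3-KO ESC library that the labels call a negative control; its parent line, how the knockout was made and how many clones it covers are not given in the sources used here. Every sample carries the strain label C57BL/6, and the labels give no other treatment. Separate peak lists were available for 3 ESC libraries, 3 EB libraries and the knockout library, and MEFs were represented by their final list alone. The lists hold positions and no read depth, enrichment or expression, so a missing peak can reflect low expression, and in these bulk samples fewer cells of a type and less RNA per cell cannot be told apart. Among genes that define the cell types, Nanog had a row in the final ESC and EB lists, Gata4 and Sox17 in both as well, Twist1 in EBs and MEFs, Thy1 in MEFs only, Col1a2 in ESCs only, and Pou5f1 and Col1a1 in none, so these lists do not check the cell labels.

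Coding stretches of 200 bases from 6 wide regions are shown because they span the range of motif content, from 10 GGAC to none. They are read 5′ to 3′ on the transcript strand from the RefSeq sequence of build GRCm38 (mm10), with each GGAC in capitals. Rbm15 (an adaptor of the m6A methyltransferase), Riox1 (a ribosomal oxygenase) and Acan (aggrecan, the large proteoglycan of cartilage) are among the 20 widest regions. Triobp (an actin-binding protein) and Tro (trophinin) are among the 5 regions with most GGAC per kb, and Fut9 (a fucosyltransferase) has none.
Rbm15, chr3:107331191-107331390, minus strand: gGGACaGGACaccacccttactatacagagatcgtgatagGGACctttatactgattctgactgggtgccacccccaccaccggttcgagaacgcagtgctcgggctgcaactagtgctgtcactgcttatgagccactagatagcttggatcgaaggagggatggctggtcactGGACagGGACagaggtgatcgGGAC
Riox1, chr12:83951189-83951388, plus strand: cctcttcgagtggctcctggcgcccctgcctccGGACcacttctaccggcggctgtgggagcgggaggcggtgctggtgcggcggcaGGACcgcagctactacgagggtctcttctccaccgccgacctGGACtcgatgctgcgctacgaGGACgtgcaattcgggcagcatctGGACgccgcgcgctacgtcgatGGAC
Acan, chr7:79099255-79099454, plus strand: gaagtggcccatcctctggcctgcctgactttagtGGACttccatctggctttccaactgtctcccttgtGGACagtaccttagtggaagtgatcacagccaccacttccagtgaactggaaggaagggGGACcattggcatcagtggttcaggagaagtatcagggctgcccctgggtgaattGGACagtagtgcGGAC
Triobp, chr15:78966792-78966991, plus strand: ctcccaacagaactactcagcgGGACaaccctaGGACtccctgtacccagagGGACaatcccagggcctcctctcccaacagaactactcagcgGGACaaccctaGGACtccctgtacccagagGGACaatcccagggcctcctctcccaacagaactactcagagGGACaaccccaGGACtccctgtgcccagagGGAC
Tro, chrX:150645947-150646146, minus strand: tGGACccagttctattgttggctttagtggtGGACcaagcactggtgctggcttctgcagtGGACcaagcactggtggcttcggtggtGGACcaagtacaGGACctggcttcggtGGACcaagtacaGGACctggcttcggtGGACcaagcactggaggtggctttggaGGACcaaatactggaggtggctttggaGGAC
Fut9, chr4:25620530-25620729, minus strand: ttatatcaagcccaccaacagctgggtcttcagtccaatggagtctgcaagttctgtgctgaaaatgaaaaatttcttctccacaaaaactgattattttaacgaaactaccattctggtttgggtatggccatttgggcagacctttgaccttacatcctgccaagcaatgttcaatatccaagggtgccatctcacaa
The Rbm15 and Riox1 stretches hold 6 GGAC each, Acan 5, Triobp 9 and Tro 10. In Triobp and Tro the motif recurs within repeated runs of bases, whereas in Rbm15, Riox1 and Acan it recurs in unlike surroundings.

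The wide regions had a median width of 1216 bp, with quartiles of 1085 and 1419 bp, and covered 747973 bp in all. The other 10978 final regions had a median of 305 bp and a highest width of 1453 bp, reached where narrower rows had joined. Only 22 wide regions reached 2000 bp and 2 reached 3000 bp. The widest in a protein-coding gene was on Ahdc1, which encodes an AT-hook DNA-binding protein, at 3085 bp (chr4:133063189-133066273). It was followed by Acan at 2967 bp, Fzd7, a Wnt receptor, at 2927 bp, Arid5b, an ARID-domain DNA-binding protein, at 2617 bp, and Tnrc6c, a scaffold of microRNA silencing, at 2608 bp. The 20 widest also held Msh6 (DNA mismatch repair, 2467 bp), Rbm15 (2419 bp), Ppp1r15b (a phosphatase subunit that acts on eIF2α, 2353 bp), Rbm15b (2302 bp) and Ep300 (a histone acetyltransferase, 2257 bp). The Acan region joined an ESC row of 1193 bp and an EB row of 2310 bp, and no library peak there was wider than 1193 bp. Rbm15b likewise joined an ESC row of 1282 bp and an EB row of 1925 bp. The narrowest members were 1700017B05Rik at 1000 bp and Pdzd8 and Btbd3 at 1001 bp. Just outside the threshold lay Fhdc1 in EBs at 999 bp, Pik3r1 in ESCs at 998 bp and Zfp516 in EBs at 997 bp, so the limit cuts a continuous range of widths.

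Membership came mainly from EBs: 135 regions were wide in both lists, 399 in EBs only and 35 in ESCs only. Where a region was wide only in EBs, the ESC list usually held a narrower row, with a median of 625 bp and a range of 168 to 998 bp over 385 regions. In the opposite case the EB row had a median of 832 bp, from 258 to 994 bp over 23 regions. The 2 lists were not built alike. Of the wide ESC rows, 170 of 171 equalled the union of overlapping peaks of the 3 ESC libraries, while this held for 11 of 534 wide EB rows, and 111 of those, 20.8%, were narrower than the widest EB library peak they overlapped, as were 27.2% of all final EB rows. In 130 of the 171 wide ESC rows and in 78.3% of the wide EB rows, the final row was wider than any library peak there, which held for 61.0% of all ESC rows and 65.3% of all EB rows. The part of list construction in the difference between ESCs and EBs was not tested.

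Counts of wide peaks in the library lists are not set by the final rows alone, although those rows were made from these libraries. Peaks of at least 1000 bp numbered 86, 78 and 52 in ESC replicates A, B and C, 0.818%, 0.394% and 0.294% of their peaks. They numbered 259, 375 and 55 in EB replicates A, B and C, or 1.42%, 1.74% and 0.445%. The ranges overlapped, since EB replicate C lay below ESC replicate A. The mean share was 0.502% ± 0.278 in ESCs and 1.20% ± 0.677 in EBs (SD, n = 3 each), a difference of 0.702 percentage points. The 2-sided exact permutation test over libraries gave p = 0.2. Its smallest possible p is 0.1, so it could not reach the threshold of 0.05 and decides nothing. The knockout library held 0 such peaks among 2043, and its widest peak was 628 bp. Read depth is unknown, and the knockout list was also the shortest of the 7 library lists.

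**Figure D1:**
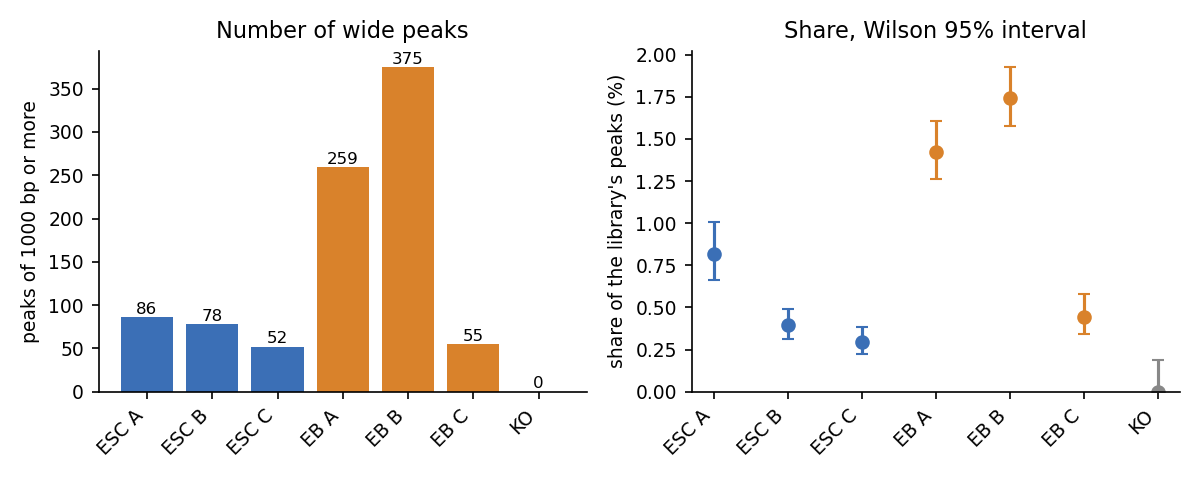
Peaks of at least 1000 bp in each library list. The left panel gives their number and the right panel their share of all peaks of the library in percent, with Wilson 95% intervals that cover counting error only. EB replicates A and B stand highest, EB replicate C lies among the ESC libraries, and the knockout is at 0.

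Most wide regions were touched by a peak in every library. The touching peak was seldom wide in the ESC libraries and EB replicate C, and more often wide in EB replicates A and B. Peaks of ESC replicates A, B and C overlapped 93.8%, 98.1% and 98.1% of the 569 regions, and those of EB replicates A, B and C 99.1%, 99.1% and 98.6%. All 6 libraries had a peak in 523 regions, 91.9%, where 41.2% of all final regions did (since the libraries made the lists, nothing is read from that gap). With at least 50% of the region covered in each library, the share was 40.6%. The peaks covered 55.5%, 63.7% and 54.8% of the regions' bases in ESC replicates A, B and C, and 84.1%, 89.96% and 58.0% in EB replicates A, B and C. EB replicate C lay within the range of the ESC libraries, and EB replicates A and B lay above it.

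**Figure D2:**
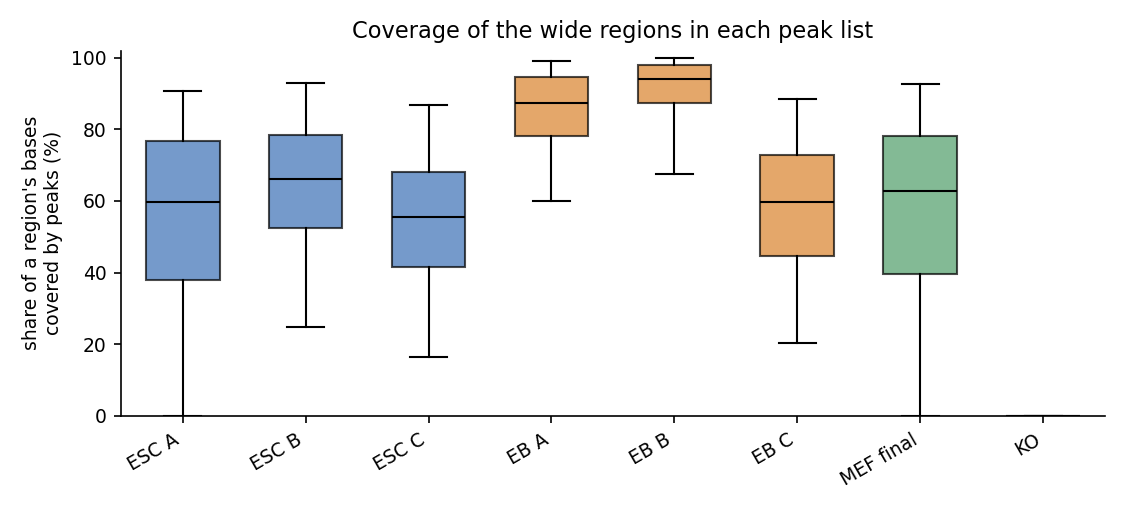
Share of the bases of each of the 569 wide regions covered by peaks of each list, in percent. Boxes span the quartiles with the median as a line, and whiskers run from the 5th to the 95th percentile of regions. EB replicates A and B fill most of a region, the other libraries and the MEF list fill less, and knockout coverage is 0 for nearly all regions.

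A peak of at least 1000 bp in at least 1 library was present in 413 of the 569 regions, where 3.91% of all final regions had it; the rule used these widths, so nothing is read from the comparison. The number was 71, 70 and 31 regions in ESC replicates A, B and C and 233, 329 and 47 in EB replicates A, B and C. In the other 156 regions every library peak was narrower than 1000 bp. Of the 413, 200 had such a peak in 1 library and 9 in all 6. Without EB replicate B, 287 regions were left with one. The median of the widest peak in a region was 592, 556.5 and 439 bp in ESC replicates A, B and C and 916, 1047 and 495 bp in EB replicates A, B and C. Regions with 2 or more separate peaks numbered 261, 406 and 409 in ESC replicates A, B and C and 292, 222 and 391 in EB replicates A, B and C, and these ranges overlapped.

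The 9 regions with a wide peak in each library were on Arid1a, Arid1b, Crebbp, Fzd5, Hs6st1, Mga, Nup62, Rbm15 and Taf5l; Crebbp, Hs6st1 and Taf5l were named after their values were seen. Widths given for a gene are those of the widest peak, or for MEFs the widest final row, that touches the region. In Arid1a, the DNA-binding subunit of the BAF complex, which uses ATP to move nucleosomes, the widest peak was 1630, 1627 and 1743 bp in ESC replicates A, B and C and 1922, 1905 and 1663 bp in EB replicates A, B and C. In Arid1b, its paralogue, it was 1064, 1115 and 1130 bp in ESCs and 1151, 1253 and 1179 bp in EBs. Peaks on both paralogues thus passed 1000 bp in each library. The MEF list held a row of 1831 bp on Arid1a and 1195 bp on Arid1b, so both stretches were wide in all 3 final lists. In Nup62, a nuclear pore protein, the widths were 1266, 1246 and 1175 bp in ESCs, 1354, 1319 and 1228 bp in EBs and 1122 bp in MEFs. Fzd5, a Wnt receptor, had 1316, 1253 and 1141 bp in ESCs, 1182, 1354 and 1014 bp in EBs and a widest MEF row of 782 bp.

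Other members had unlike widths in ESCs and EBs. The narrowest EB value lay above the widest ESC value in 130 of the 569 regions, 22.8%, where this held for 12.7% of all final regions; the reverse held for 3, against 2.67% of all final regions. Most members were chosen by their EB width, so nothing is read from these counts. In Fzd7 the widest peak was 449, 578 and 367 bp in the ESC libraries and 2341, 2914 and 1827 bp in the EB libraries, with no overlap of the groups. The number of peaks on it was 3, 4 and 4 in ESC replicates A, B and C and 2, 1 and 4 in EB replicates A, B and C, so only EB replicate B and the final EB list held it as a single interval. The MEF list held 4 rows there, the widest 874 bp. Its exon is the gene's single exon, and the region took in 536 bases of 5′ UTR, 1719 coding bases and 387 bases of 3′ UTR; the rest of its 2927 bp lay upstream of the annotated transcript. In Ythdf2, whose product reads m6A and recruits mRNA decay, the widths were 810, 760 and 854 bp in ESCs and 1491, 1613 and 883 bp in EBs, so that EB replicate C came close to the ESC libraries. The MEF list held 2 rows on it, the wider of 869 bp.

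**Figure D3:**
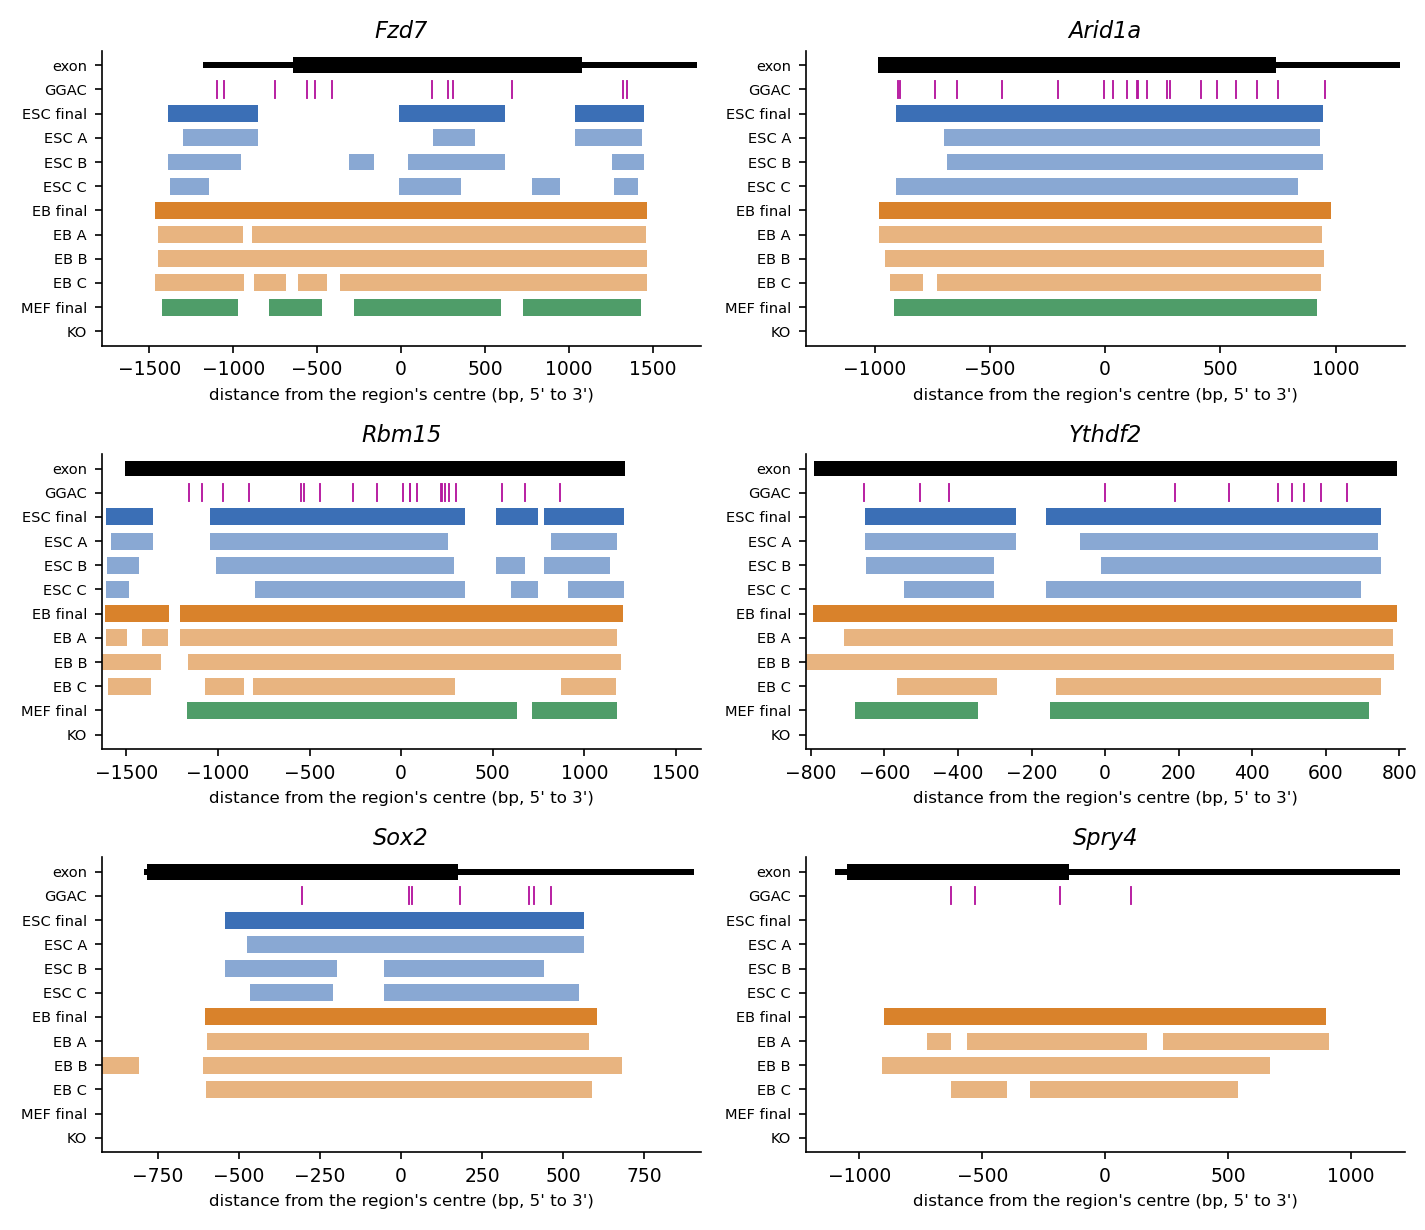
Peaks of every list over 6 wide regions, by distance in bp from the region's centre along the transcript. Black bars are exons (thick where coding, drawn to 300 bp beyond the region), purple ticks are GGAC, dark bars are final ESC, EB and MEF rows and light bars are library peaks. Arid1a is wide in all 6 libraries, Fzd7 is a single peak only in EB replicate B and the final EB list, Spry4 has no ESC or MEF peak, and the KO row is empty in all 6 panels.

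In all, 14 wide regions had no final ESC row, and in 4 of them no ESC library had any peak. Final ESC rows overlapped 97.5% of wide regions and 84.6% of the other final regions. The rule used these rows, so nothing is read from that gap. Spry4, a feedback inhibitor of receptor tyrosine kinase and ERK signalling, had widths of 0 bp in the 3 ESC libraries and 731, 1578 and 848 bp in EB replicates A, B and C. Grem1, a secreted BMP antagonist, had 0 bp in the 3 ESC libraries and 697, 1228 and 166 bp in EBs. Tet1, an enzyme that oxidises 5-methylcytosine in DNA, had 0 bp in the ESC libraries and 369, 910 and 162 bp in EBs. The groups did not overlap for these genes, and the rule chose them for an EB row. The same order held for 22.8% of wide regions and 12.7% of all final regions. Sox7 (an endoderm and vascular transcription factor), Foxq1 (a forkhead factor), Cemip (which takes part in hyaluronan breakdown) and Arsi (an arylsulfatase) also lacked an ESC row, although a narrow peak was present in at least 1 ESC library on each. Only 2 of the 14 had a MEF row, where 55.2% of all final regions had one.

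Conversely, 12 wide ESC regions had no final EB row, but 4 of those had a peak in all 3 EB libraries. Final EB rows overlapped 97.9% of wide regions and 70.7% of the other final regions, and nothing is read from that gap either. Tnc, the matrix protein tenascin C, had widths of 1047, 1131 and 401 bp in ESC replicates A, B and C and 1288, 1292 and 600 bp in EB replicates A, B and C. Its absence from the EB list is thus not an absence from the EB libraries. Celsr2, an adhesion receptor with cadherin repeats, had 326, 1258 and 108 bp in ESCs and 171, 364 and 0 bp in EBs.

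A group of 4 regions rested on ESC replicate C. The widest region of all, 5047 bp at chr5:127877361-127882407, was named Tmem132d by the authors and lies over the non-coding GENCODE gene Gm17131, a pseudogene. Its widest peak was 438 bp in ESC replicate A, 5047 bp in replicate C and 0 bp in ESC replicate B and the 3 EB libraries. Regions without an annotated exon that the authors named Glmn (1739 bp), Fgd4 (1718 bp) and Hexdc (1112 bp) followed the same pattern, with 201, 167 and 154 bp in ESC replicate A. None of these 4 had a MEF row, and the first and the Glmn region were each overlapped by 2 knockout peaks. The remaining members off coding transcripts were Tug1, a long non-coding RNA, at 1847 bp, and a region the authors named Ankrd50 at 1235 bp. The other 563 regions lay on protein-coding transcripts.

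Few wide regions had a peak in the Mettl3-KO library. Knockout peaks overlapped 11 of 569 wide regions, 1.93% (Wilson 95% interval 1.08 to 3.43%), where 9.21% of all final regions and 9.59% of the other final regions (9.06 to 10.2%) were overlapped. They covered 0.231% of the bases of wide regions and 2.79% of those of the others. The share differed by position: among wide regions that hold the start codon 8 of 85, 9.41%, had a knockout peak, and among those that do not, 1 of 478, 0.209%. In the other final regions these shares were 34.3% and 4.59%, so the wide regions had the lower share in both classes. With 1 knockout library there is no test between genotypes, and the part of its sequencing depth was not tested.

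The 8 wide regions with a start codon and a knockout peak were on Riox1, Rap2b (a small GTPase), Plekhf1, Rbmxl2, Jun (an AP-1 transcription factor), Zcchc3, Trim71 (an RNA-binding ubiquitin ligase) and Klf9. Knockout peaks covered 77 to 110 bases of each of them, against region widths of 1052 to 2065 bp. In Jun, for example, 77 bases of 1348 were covered. The member without the start codon was Tnc, where 2 knockout peaks covered 477 of 1131 bases. The other 2 were the Gm17131 region, with 173 bases, and the exonless Glmn region, with 342.

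Most wide regions were present in fibroblasts. A row of the final MEF list overlapped 486 of 569 wide regions, 85.4% (82.3 to 88.1%), where 55.2% of all final regions and 53.7% of the others (52.7 to 54.6%) were overlapped. At least 50% of the bases were covered in 370 wide regions, 65.0% (61.0 to 68.8%), and in 38.7% of the others. Of all bases, 55.8% were covered in wide regions and 40.4% in the others. The part of region length in these shares was not tested. The MEF row itself was 1000 bp or more in 78 wide regions, where 1.04% of all final regions had such a row. Of the 114 wide MEF rows, 78 (68.4%) overlapped a wide region and 104 (91.2%) overlapped any final ESC or EB row.

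Presence in MEFs differed with the list that had made a region wide. The MEF list overlapped 126 of 135 regions wide in both lists (93.3%, 87.8 to 96.5%), 85.5% of 399 wide in EBs only (81.7 to 88.6%) and 19 of 35 wide in ESCs only (54.3%, 38.2 to 69.5%). A MEF row of at least 1000 bp was present in 29.6%, 9.02% and 5.71% of them in the same order. Their median widths were 1313, 1192 and 1111 bp. The share for regions wide in ESCs only lay near the 55.2% of all final regions. These include the regions that rested on ESC replicate C, which had no MEF row. Wide regions without a MEF row included Plec, a linker of the cytoskeleton, at 2477 bp, Flg, filaggrin of the skin barrier, at 2269 bp, Thbd, the endothelial receptor thrombomodulin, at 2208 bp, and Flrt3, a membrane protein with leucine-rich repeats, at 1998 bp. In Flg the widest peak was 2157, 2158 and 2269 bp in ESC replicates A, B and C and 972, 2148 and 1277 bp in EBs. In Thbd it was 233, 182 and 108 bp in ESCs and 961, 1543 and 475 bp in EBs, so Flg was wide in both cell types and Thbd only in EB replicate B and the final EB list.

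Long exons held these regions. Of the 565 with an annotated exon in the chosen transcript, 564 touched a single exon, and the longest exon touched had a median of 2688 nt, from 321 to 11489 nt. In the other regions the median was 1151.5 nt. A region of this width needs room, so exon length is tied to the rule; in 558 of the 565 regions the exon was itself at least 1000 nt long. Exceptions included Flg, with an annotated exon of 768 nt under 2269 bp, and a Spen region of 1528 bp over an internal exon of 321 nt, where ESC replicate A gave a peak of 1517 bp and no other library more than 579 bp. The exon touched was the longest of its transcript in 82.8% of wide regions and 59.9% of others.

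The exon was the last of its transcript in 61.9% of wide regions, internal in 23.9%, the only exon in 9.20% and the first in 4.96%. In the other regions the shares were 51.3%, 22.9%, 2.87% and 22.9%. Internal exons under wide regions had a median of 1544 nt, and a median of 82.7% of the exon lay inside the region. In 47 of 135 such cases at least 90% of the internal exon was inside, as in Ythdf2 (an exon of 1584 nt, 100%), Ythdf3 (1599 nt, 92.4%), Tnrc6c (2601 nt, 99.7%), Msh6 (2536 nt, 96.7%) and Foxo1 (1352 nt, 98.4%). Last exons were longer, with a median of 2962.5 nt, and a median of 42.5% of them lay inside. In the other final regions these shares of exon were 52.7% for internal and 18.1% for last exons.

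**Figure D4:**
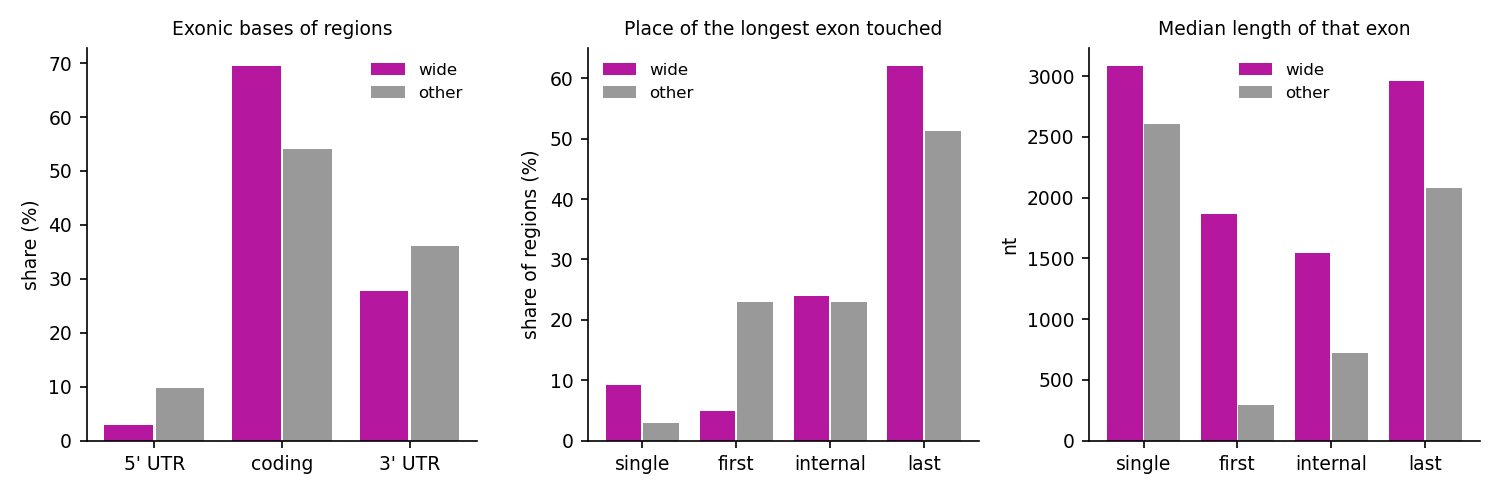
Where wide regions and other final regions lie. The left panel gives the share of exonic bases in each mRNA part, the middle panel the share of regions by the place of the longest exon touched, both in percent, and the right panel the median length of that exon in nt. Wide regions hold more coding bases, lie less often on the first exon and lie on longer exons of every kind.

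Coding sequence made up 69.4% of the exonic bases of wide regions and 54.0% of those of other regions. The 3′ UTR made up 27.7% and 36.1%, and the 5′ UTR 2.95% and 9.84%. The stop codon lay inside 331 wide regions, 58.8%, where 29.2% of all final regions and 27.6% of the others held it. A longer interval is more likely to reach a given point, so this share is tied to width. Around the stop codon the wide regions were lopsided: a median of 851 bases lay before it and 399 after it, against 141 and 229 in other regions. The wholly coding regions, such as Acan, Rbm15 and Plec, numbered 154 or 27.4%, where 30.1% of the other regions were wholly coding. Only 29 wide regions, 5.15%, lay wholly in the 3′ UTR, such as Ski, a corepressor of Smad proteins, against 16.5% of the others.

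GGAC was more frequent in wide regions than in the peak-free rest of the same transcripts and slightly less frequent than in other peaks. The rest is the exonic sequence of the 538 transcripts with wide regions that lay under no final ESC, EB or MEF row. Exonic sequence of wide regions held 6.00 GGAC per kb (4398 sites), other final regions 6.61 and the rest 3.50. The ratios were 0.908 to the others and 1.72 to the rest. The reverse complement GTCC, searched on the same strand as a control, was at 3.70, 3.66 and 3.44 per kb. Within coding bases alone, GGAC was at 6.36 per kb in wide regions, 6.74 in others and 4.47 in the rest. The longer form GGACT was at 1.58, 1.99 and 0.914 per kb over all exonic bases, and DRACH, which contains many GGAC sites, at 21.8, 23.1 and 18.7. GC content was 54.0% in wide regions, 53.9% in others and 48.4% in the rest. Of all 256 tetramers, GGAC ranked 1st for wide regions over the rest. It also ranked 1st for other final regions over the rest, and 235th for wide over other regions. The rest came from the transcripts of wide regions only, while other final regions also lay on other genes. Regions are not replicates and genes share sequence features, so these are descriptions.

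A wide region carried many motifs rather than a denser set. The median was 7 GGAC per region, with quartiles of 5 and 10 and a highest value of 33 in Acan, while other regions had a median of 2. At least 1 GGAC was present in 563 of 565 wide regions, 99.6%, where 83.1% of all final regions had one, a share that length also sets. Neighbouring GGAC within a region were a median of 93 nt apart, and 52.5% of neighbours were within 100 nt. The longest run without GGAC in a region had a median of 395 nt. Across the 565 regions width had a Spearman correlation of 0.34 with the number of GGAC and of 0.00 with their density per kb; width and number share the length of the region.

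The profile along the transcript was flat in wide regions and peaked in others. Over 10 equal bins of a wide region from 5′ to 3′, GGAC stood between 5.81 and 6.50 per kb in the first 9 bins and at 4.67 in the last. In other regions it rose from 5.08 in the first bin to 7.86 at its highest and ended at 4.68. In the 500 nt before a wide region it was 4.79 per kb and in the 500 nt after it 3.16; these flanks can contain other peaks.

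**Figure D5:**
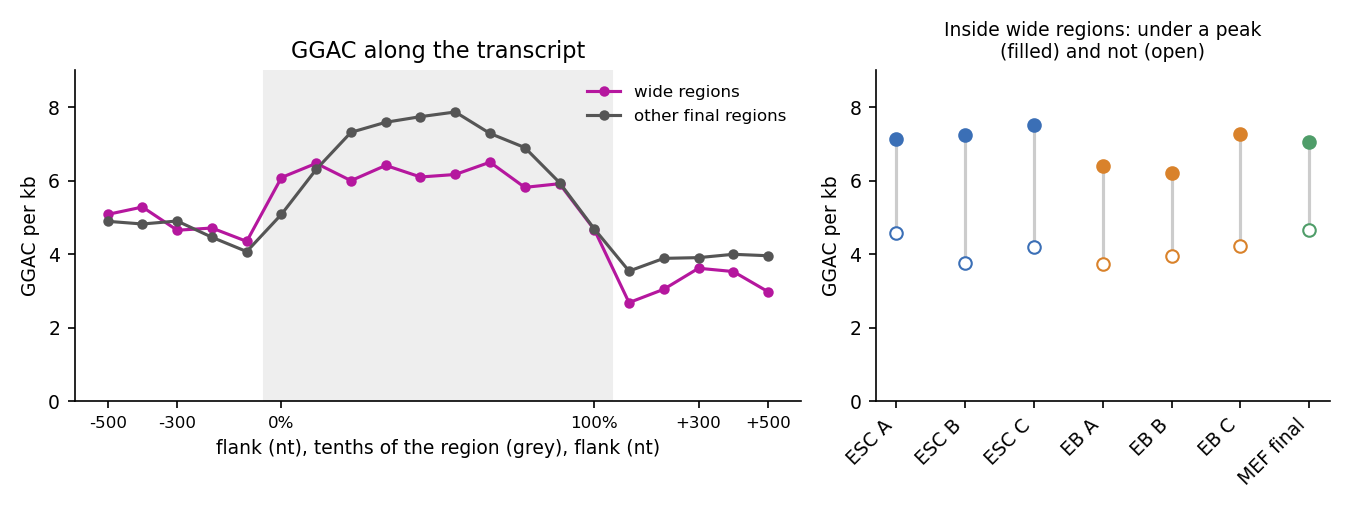
GGAC per kb of exonic sequence. The left panel gives the flanks of 500 nt in bins of 100 nt and the region in 10 equal bins (grey), for wide and other final regions; the right panel compares bases of wide regions under a peak of each list (filled) with bases of wide regions not under one (open). The wide profile is flat inside the region, and bases under a peak hold more GGAC in the 6 libraries and the MEF list. The knockout list is not drawn in the right panel.

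Inside wide regions the motif was denser under the narrower peaks of single lists. In ESC replicates A, B and C, bases under a peak held 7.12, 7.25 and 7.51 GGAC per kb, and bases of the same regions outside a peak held 4.58, 3.75 and 4.20. In EB replicates A, B and C the values were 6.40, 6.21 and 7.25 under a peak and 3.73, 3.94 and 4.23 outside. In the MEF list, which did not enter the rule, they were 7.05 and 4.64. The order was the same in these 7 lists. The knockout list had it too, with 12.4 per kb under a peak and 5.99 outside. Its peaks covered only 1212 of these bases, with 15 sites.

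Members at both extremes of motif density are given by their peaks. Triobp had 23.3 GGAC per kb (24 sites), Wdr33 22.3, Tro 19.9, Dido1 15.6 and Chtf8 15.4. Fut9 and Siah1a (a ubiquitin ligase) had none, Msl2 (a subunit of a histone acetyltransferase complex) had 0.657 per kb, and Zmym5 and Tmtc3 were the next lowest. In Fut9 the widest peak was 921, 986 and 950 bp in ESC replicates A, B and C, 705, 1044 and 176 bp in EBs, and there was no MEF row. Triobp had 0, 519 and 253 bp in ESCs, 1056, 531 and 615 bp in EBs and a MEF row of 1150 bp. Wdr33 had 935, 1008 and 519 bp in ESCs and 1044, 962 and 905 bp in EBs, and Siah1a, without a GGAC, had 933, 988 and 335 bp in ESCs and 824, 1005 and 381 bp in EBs. Members with the most and with no GGAC included regions of like width. All members were chosen for width, so nothing is read from this likeness.

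Gene lists drawn up with earlier results of these data in view were then counted against the 7.49% of genes with a final region that had a wide one. Wide regions lay on 5 of 17 genes of the m6A machinery with a final region (21 listed). They were Rbm15 and Rbm15b, adaptors of the methyltransferase, and the readers Ythdf1, Ythdf2 and Ythdf3. Rbm15 was wide in each library (1295, 1301 and 1143 bp in ESCs, 2388, 2364 and 1104 bp in EBs, 1802 bp in MEFs). Ythdf1 had 1265, 1236 and 755 bp in ESCs, 867, 1352 and 900 bp in EBs and 1397 bp in MEFs, and Ythdf3 364, 810 and 464 bp in ESCs, 1537, 1503 and 488 bp in EBs and 781 bp in MEFs. The 3 readers thus each had their wide region on the long internal coding exon, with different widths by library.

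Wnt receptors and their turnover gave 5 of 14 (26 listed): the receptors Fzd5 and Fzd7, the R-spondin receptor Lgr4, the chaperone Mesd and Znrf3, a ubiquitin ligase that removes Wnt receptors. Znrf3 had 1525, 1259 and 994 bp in ESCs, 1269, 1841 and 1078 bp in EBs and 1557 bp in MEFs. Of the Wnt pathway inside the cell 1 of 19 genes had one, Bcl9l, a cofactor of β-catenin. FGF and ERK feedback genes gave 6 of 18 (26 listed): the inhibitors Spry1, Spry2, Spry4 and Spred1, the phosphatase Dusp5 and the adaptor Frs2. Spry2 had 974, 856 and 622 bp in ESCs and 1115, 1153 and 792 bp in EBs, unlike Spry4, which had no ESC peak.

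Pluripotency factors gave 6 of 21 (26 listed): Mycn, Otx2, Sox2, Tbx3, Tet1 and Tet2. Sox2 had 1040, 491 and 599 bp in ESCs and 1178, 1292 and 1190 bp in EBs, with no overlap of the groups and no MEF row. Each EB value lay above each ESC value in 22.8% of wide regions. The host of Sox2, the non-coding Sox2ot, overlaps it on the same strand and can share reads. The authors' final rows there carry the symbols Sox2 and Sox2ot. Otx2, a factor of the primed state and of neural tissue, had 0, 383 and 366 bp in ESCs and 1042, 863 and 1017 bp in EBs. Both regions were in single or last exons, across the stop codon. BAF subunits gave 4 of 13 (27 listed; Arid1a, Arid1b, Arid2 and Bicra), and Trithorax H3K4 methyltransferase genes 4 of 17 (18 listed; Hcfc1, Kmt2b, Kmt2d and Setd1b). The insulin and FoxO list gave 4 of 20 (26 listed; Foxo1, Foxo3, Phlpp1 and Rictor) and the Polycomb list 3 of 28 (36 listed; Asxl1, Bcorl1 and Cbx2).

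The BMP, Nodal and Smad list gave 1 of 24 genes (Ski, 4.17%). The Notch list gave 1 of 14 (Spen, 7.14%), near the 7.49% of all genes with a final region. Of the Irf2bp family, 1 of 2 genes (Irf2bp1) had one. Cytosolic ribosomal proteins, which have short transcripts, had no final region on any of 27 genes. Families counted after values were seen gave 21 of 258 Zfp symbols, 2 of 14 Klf symbols, 7 of 28 Arhgap and Arhgef symbols and 0 of 3 Pcdh symbols. A gene needs a long exon to be counted, and the part of exon length in these shares was not tested.

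More than 1 wide region lay on 28 genes, and 3 each on Mga, Smcr8 and Spen. On Mga, a Max-binding transcription factor, the 3 regions were 1335, 1226 and 1155 bp wide. The first was wide in each library (1081, 1145 and 1039 bp in ESCs, 1177, 1331 and 1104 bp in EBs), and the third had 206, 276 and 459 bp in ESCs and 1123, 1138 and 385 bp in EBs. Regions of the same gene thus differed in how they were split. Other genes with 2 included Ahdc1, Nsd1 and Kmt2d (histone methyltransferases), Plec, Zfhx3, Bach1, Tns3 and Adnp2.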

How the data were processed

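The 10 files analysed hold the genomic positions of m6A peaks and no score, depth or enrichment. Of these, 7 list the peaks of 1 antibody-enriched library each, and the final ESC, EB and MEF lists are the authors' deposited rows with a gene symbol. The tools named per the submitters' processing notes are MACS 1.4.1, TopHat2 2.0.10 and CASAVA 1.8.2, with build mm10 and no role or order; ESC and EB library peaks carry names that start with a newer MACS version's name. How final rows were made, how replicates were joined and the read depth are not given in the sources used here, and input libraries and single MEF libraries were not analysed here.

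Rows with end minus start of at least 1000 were merged where they overlapped. All final rows were merged likewise, and merged regions that touched no wide region formed the other final regions. Overlap meant at least 1 bp. Each region was placed on 1 GENCODE M21 basic transcript, without strand information from the reads, so overlapping genes can share a peak (38 wide regions touched exons of 2 or more genes, 31 of them on both strands); in 42 the authors' symbol differed from GENCODE's. Motifs were counted on the transcript strand of GRCm38. Python 3.11.15, NumPy 2.4.6, SciPy 1.17.1, pysam 0.24.0 and matplotlib 3.10.9 were used, and interval and motif code was tested on simulated data. Coordinates count from 1; MEF starts were read like the others, so MEF widths may be off by 1 bp. ESC and EB libraries, called biological replicates by the series' design, were compared by a 2-sided exact permutation test. Wilson 95% intervals cover counting error only, and regions are not replicates.

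Members and gene lists were chosen with earlier results of these data known. Named genes are the 20 widest regions, the 10 widest with a knockout peak, without a MEF row or in 1 final list only, the genes of the lists, the 5 regions with most and with fewest GGAC per kb, those nearest the threshold, the 10 with the widest mean library peak, regions off coding transcripts and genes with 2 or more regions; Klf9 was added to complete a count.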

Additional observations from a re-analysis of the deposited data

How the results depend on the processing

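Of 51 alternatives, 37 left a value on its side or within its spread and 14 moved it. For the EB minus ESC share of wide library peaks, only a change of sign could have counted as a move. No p below 0.05 was possible there. The number of wide regions, 569, was 1059 from 800 bp and 117 from 1500 bp, 171 from the ESC list alone, 213 with a peak of at least 1000 bp in 2 or more libraries, and 287 with such a peak in a library other than EB replicate B; the last 2 were chosen after seeing the data. With at least 50% of the region covered in place of 1 bp, 65.0% of wide regions were present in MEFs and 40.6% in all 6 libraries. Without each library in turn, presence in all the others ranged from 91.9% to 96.3%, the highest without ESC replicate A. Leaving a library out can only keep or raise this share. The ratio of motif density to other regions was 0.795 for GGACT, 0.942 for DRACH and 0.944 over coding bases only, below 1 in each. The median exon was 2352 nt from 800 bp and 3423 nt from 1500 bp, and coding bases made up 76.8% from 1500 bp. The share of wide library peaks, EB minus ESC, ranged from 0.433 to 1.08 percentage points without each library in turn (p from 0.1 to 0.4 in exact permutation tests), and the lower value came without EB replicate B. With the letters as a replicate block it was 0.702 (exact sign-flip p = 0.25, the smallest 3 pairs allow). Same-lettered libraries deviated together with correlations of -0.0898, 0.161 and 0.0369, so the letters were not taken as pairs. Depth per library is unknown and limits every statement on absent or narrow peaks.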
